A study of Mus musculus with 3 samples.

Results

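The 10 genes described here are the transcription factors at the core of skeletal muscle specification, together with the Mef2 factors and the E protein that act beside them. They were taken by gene name from the deposited expression table, and each of Myod1, Myf5, Myf6, Myog, Pax3, Pax7, Mef2a, Mef2c, Mef2d and Tcf12 matched exactly 1 of the 55573 genes listed. The data are UMI-RNAseq of NIH3T3 cells, an established line of mouse embryonic fibroblasts, grown in DMEM with serum and antibiotics, and no treatment is named in the labels. The dataset holds 3 libraries of this 1 condition, named library 1, library 2 and library 3 here, so no group could be compared with another. Levels are given as FPKM, the count of fragments of a gene scaled by its length and by the library total. Each fragment carries a UMI, a random tag that lets PCR copies be removed. Neither labels nor methods tell whether the 3 libraries stem from different cultures, and the SD given may therefore be technical.

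Of the 18 fibroblast markers examined, 15 had a mean FPKM of at least 1, as did 49.2% of all protein-coding genes. The 18 markers summed to between 10553 and 10684 FPKM per library, and Fn1, Col1a2 and Vim stood highest. Lum was listed at 0. The extraction text of the labels mentions retina, whereas 15 of 16 retina markers lay below 1 FPKM, Nrl was listed at 0, and the list summed to between 3.50 and 4.11 FPKM per library. The library totals, worked out from the FPKM values of genes with few fragments, were 14423209, 13959723 and 14307241 fragments.

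As background, skeletal muscle cells are specified by the myogenic regulatory factors Myf5, MyoD (Myod1), Mrf4 (Myf6) and myogenin (Myog). These are basic helix-loop-helix (bHLH) proteins that bind E-boxes, the sequence CANNTG, as dimers with widely expressed E proteins such as Tcf12 (HEB), Tcf3 (E2A) and Tcf4 (E2-2). Pax3 and Pax7 act in muscle progenitors, and Pax3 also in neural crest and dorsal neural tube. Mef2 factors carry a MADS box, act with the myogenic bHLH factors at muscle genes, and are also used in neurons, heart, immune cells and growth factor responses. Fibroblasts can be turned to muscle by forced expression of MyoD.

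The Mef2 members are paralogs, and the beginning of their coding sequences, which encodes the DNA-binding MADS box, is shown first as an example of how far the 3 genes differ in sequence. The sequences are the first 171 bases of the longest coding sequence of each gene in GENCODE M21, from the start codon, and capitals mark the positions at which the 3 genes are not all the same:
Mef2a: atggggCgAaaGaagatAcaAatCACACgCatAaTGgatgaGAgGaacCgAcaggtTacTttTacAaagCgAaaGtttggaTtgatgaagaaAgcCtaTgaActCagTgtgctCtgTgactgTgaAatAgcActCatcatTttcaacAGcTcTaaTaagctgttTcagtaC
Mef2c: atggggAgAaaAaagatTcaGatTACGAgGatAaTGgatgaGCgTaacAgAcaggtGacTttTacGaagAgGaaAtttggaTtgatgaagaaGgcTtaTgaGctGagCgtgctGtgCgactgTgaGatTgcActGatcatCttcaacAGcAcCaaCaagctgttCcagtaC
Mef2d: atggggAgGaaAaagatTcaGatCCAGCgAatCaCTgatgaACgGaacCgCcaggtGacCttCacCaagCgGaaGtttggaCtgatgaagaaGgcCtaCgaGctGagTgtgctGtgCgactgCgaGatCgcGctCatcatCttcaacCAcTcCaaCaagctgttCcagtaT
The 3 genes had the same base at 123 of these 171 positions and differed at 48. Mef2c and Mef2d shared 82.5% of the bases, Mef2a and Mef2c 81.9%, and Mef2a and Mef2d 77.8%. Of the 30 positions at which Mef2c and Mef2d differed, 20 were last bases of codons. The longest stretch identical between the annotated transcripts of any 2 Mef2 members was 28 bases, between Mef2c and Mef2d, which is far shorter than a 75-nt word. Among the myogenic bHLH genes the longest identical stretch was 26 bases, between Myod1 and Myf5, and between Pax3 and Pax7 it was also 26 bases. No 75-nt word of Myod1, Myf5, Myf6, Myog, Pax3, Pax7, Mef2c or Tcf12 occurred in an annotated transcript of another gene. For Mef2a this share was 2.56% of words, shared with 70 genes and most often with Lysmd4, and for Mef2d it was 7.29%, all with 1700113A16Rik. Both of these overlap the member on the opposite strand, and the strand setting of the counting is not given in the sources used here, so reads of such a pair cannot be told apart where they overlap. Lysmd4 had 7.48 ± 0.327 FPKM (SD, n = 3) and 1700113A16Rik 0.515 ± 0.229 FPKM (SD, n = 3).

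The 10 members fell apart into 5 that were expressed and 5 that were listed at 0. Tcf12, Mef2d, Mef2a, Pax3 and Mef2c had a mean FPKM of at least 1, and Myod1, Myf5, Myf6, Myog and Pax7 were at 0 in all 3 libraries, with no member between these states. Across the table, 23.2% of the 55573 listed genes and 49.2% of the 21980 protein-coding genes reached a mean FPKM of 1, so the count of 5 among 10 members lay at the share of protein-coding genes. A value of 0 in all libraries was found for 28.2% of protein-coding genes and 52.9% of all listed genes.

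**Figure D1:**
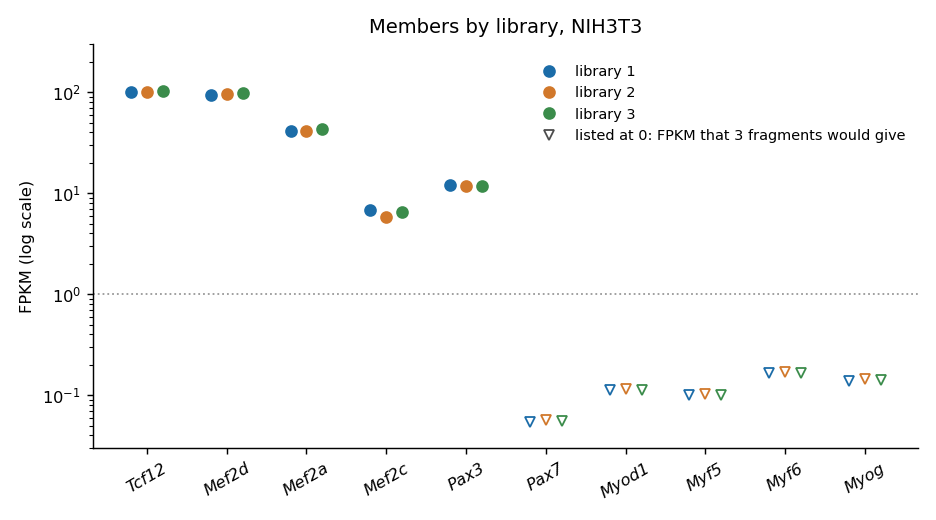
FPKM of the 10 members (horizontal axis) in each of the 3 NIH3T3 libraries, on a log scale; open triangles stand at the FPKM that 3 fragments would give for genes listed at 0, and the dotted line marks 1 FPKM. Tcf12 and Mef2d lie near 100 FPKM, Mef2a, Pax3 and Mef2c follow, and Pax7 and the 4 myogenic bHLH genes are at 0 in each library.

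The 4 myogenic regulatory factors were all at 0, as were 28.2% of all protein-coding genes. Myod1 (ENSMUSG00000009471; GRCm38 chromosome 7, 46376474 to 46379099, plus strand), which commits cells to the muscle fate, had 0 fragments in each of the 3 libraries. At this depth, 3 fragments would have given Myod1 0.112, 0.115 and 0.113 FPKM in libraries 1, 2 and 3. This limit was chosen and is not the lowest detectable level, because genes with fewer fragments were also listed above 0. Expression below the limit is not excluded by a value of 0. Myf5 (ENSMUSG00000000435; chromosome 10, 107482908 to 107486134, minus strand) is the first of these factors to appear in the embryo and was likewise at 0 in each library, with limits of 0.0999 to 0.103 FPKM. Its neighbour Myf6 (ENSMUSG00000035923; chromosome 10, 107492853 to 107494737, minus strand), known for late differentiation, was at 0 with limits of 0.165 to 0.170 FPKM. Myog (ENSMUSG00000026459; chromosome 1, 134289989 to 134292548, plus strand), which drives terminal differentiation, was at 0 with limits of 0.139 to 0.144 FPKM. Each of these 4 genes has 1 annotated isoform and overlaps no other annotated gene. The limits and all intervals given here cover counting error only.

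The nearest protein-coding gene on either side of these loci was also below 1 FPKM, a comparison made after the members' values were seen. Beside Myod1, Otog had 0.222 ± 0.0389 FPKM (SD, n = 3) and Kcnc1 was listed at 0. Myf5 and Myf6 lie 6719 nt apart, and of the genes beyond them Lin7a was listed at 0 and Ptprq had 0.0128, 0.0133 and 0 FPKM in libraries 1, 2 and 3. Beside Myog, Adora1 was listed at 0 and Ppfia4 had 0.0365 ± 0.000622 FPKM (SD, n = 3). Of the 8 genes flanking the members at 0, Pax7 included, 0 reached 1 FPKM, against 7 of the 10 flanking the expressed members and 49.2% of all protein-coding genes. These are few genes, and no test was made. Their distances also differed, from 4235 nt (Ppfia4) to 126692 nt (Klhdc7a beside Pax7) for the members at 0. For the expressed members they ran from 21324 nt (Iqgap3) to 1706879 nt (Cetn3). Both neighbours of Mef2c were expressed, Cetn3 with 25.2 FPKM and Tmem161b with 23.2, as were those of Tcf12, Cgnl1 with 4.90 and Zfp280d with 4.28. Iqgap3 beside Mef2d had 30.02 ± 0.448 FPKM (SD, n = 3) and Rhbg on its other side was listed at 0.

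Pax3 and Pax7, the paired box pair of muscle progenitors, stood in opposite states. Pax3 (ENSMUSG00000004872; chromosome 1, 78101267 to 78197134, minus strand) had 12.2 FPKM in library 1, 11.9 in library 2 and 11.9 in library 3, from 598, 566 and 580 fragments. Its mean of 12.0 ± 0.156 FPKM (SD, n = 3) ranked 7671 among the 12905 expressed genes, those with a mean of 1 or more, above 40.6% of them. The libraries lay within a factor of 1.02 of each other, and the coefficient of variation of 1.30% was below the 4.15% of counting error alone. Pax7 (ENSMUSG00000028736; chromosome 4, 139737062 to 139833528, minus strand) had 0 fragments in every library. With Pax7 at 3 fragments per library, Pax3 was at least 210.1-fold higher. So Pax3 does not belong with the genes at 0, and the name of silent myogenic factors holds here for the 4 bHLH genes and Pax7 only.

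Within the Pax family, 2 of 9 genes were expressed (22.2%, against 49.2% of all protein-coding genes). Besides Pax3 this was Pax9, known from tooth and pharyngeal pouch development, with 7.03, 6.58 and 7.72 FPKM in libraries 1, 2 and 3. Pax3 lay above Pax9 in 3 of 3 libraries, by a mean factor of 1.69 ± 0.137 (SD, n = 3). Pax8 had 0.465 ± 0.159 FPKM (SD, n = 3) from 28 fragments in all, and Pax5 rested on 7 fragments and Pax2 on 1. Pax1, Pax4 and Pax6 were listed at 0, as was Pax7. The genes next to Pax3 were Epha4, with 2.39 ± 0.224 FPKM (SD, n = 3), and Sgpp2, with 0.0880 ± 0.0188 FPKM (SD, n = 3).

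All 3 Mef2 members were expressed, as were 49.2% of all protein-coding genes. Mef2d lay above Mef2c by a factor of 15.0 ± 1.52 (SD, n = 3). Mef2d (ENSMUSG00000001419; chromosome 3, 88142372 to 88172086, plus strand) had 93.4 FPKM in library 1, 96.5 in library 2 and 97.4 in library 3, from 2667, 2667 and 2760 fragments, with a mean of 95.8 ± 2.11 (SD, n = 3). Mef2a (ENSMUSG00000030557; chromosome 7, 67231163 to 67372858, minus strand) had 41.4, 41.7 and 43.0 FPKM from 1678, 1636 and 1731 fragments, with a mean of 42.0 ± 0.880 (SD, n = 3). Mef2c (ENSMUSG00000005583; chromosome 13, 83504034 to 83667080, plus strand), the member best known from heart, muscle and neurons, had 6.88, 5.81 and 6.56 FPKM from 219, 179 and 207 fragments. The 3 genes did not overlap in any library, and the order Mef2d, Mef2a, Mef2c was the same in each.

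Mef2c varied the most of the expressed members. Its mean of 6.42 ± 0.549 FPKM (SD, n = 3) had a coefficient of variation of 8.55%, against 7.04% from counting error alone, and library 2 was the lowest. The exact Poisson 95% interval of library 2, 4.99 to 6.73 FPKM, overlapped those of library 1 (5.999 to 7.85) and library 3 (5.69 to 7.51). Overlap of intervals is not a test of a difference, so none between libraries is claimed or excluded for Mef2c. For Mef2d the coefficient of variation was 2.21% against 1.93% from counting error, and for Mef2a 2.09% against 2.44%.

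Of the summed FPKM of the 3 Mef2 members, which was 141.7, 144.0 and 147.0 in libraries 1, 2 and 3, Mef2d held 66.4% ± 0.555, Mef2a 29.1% ± 0.171 and Mef2c 4.45% ± 0.411 (SD, n = 3). With the longest annotated isoform in place of the mean isoform length behind the FPKM, Mef2d held 59.8% and Mef2a 36.3%. The remaining family gene Mef2b, the most diverged paralog, had 1.18, 1.496 and 1.57 FPKM from 78 fragments in all. Mef2b shares 62 exonic bases with Borcs8 on the same strand, and Borcs8 had 11.4 ± 1.22 FPKM (SD, n = 3). Mef2c lay above Mef2b by a factor of 5.83, 3.88 and 4.18 in the 3 libraries.

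Tcf12 (ENSMUSG00000032228; chromosome 9, 71842688 to 72111871, minus strand), the E protein among the members, was the highest of the 10 genes. It had 100.2 FPKM in library 1, 101.3 in library 2 and 103.5 in library 3, from 3571, 3494 and 3656 fragments. Its mean of 101.7 ± 1.64 FPKM (SD, n = 3) ranked 1191 of the 12905 expressed genes, above 90.8% of them. Mef2d ranked 1267, Mef2a 3358 and Mef2c 9307 on the same scale, and the median over these 12905 genes was 17.5 FPKM. Of 11 annotated genes that overlap Tcf12, none shared an exonic base with it.

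**Figure D2:**
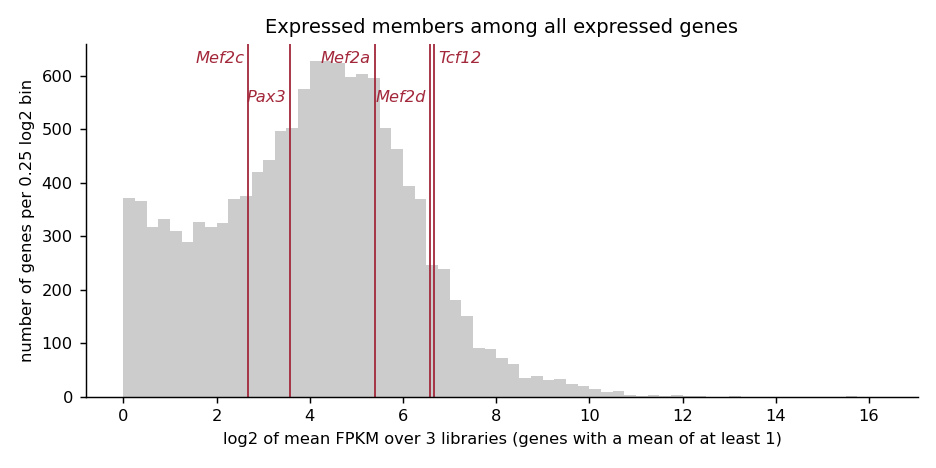
Histogram of the log2 of the mean FPKM over 3 libraries for the 12905 expressed genes (vertical axis: genes per bin), with a line at each expressed member. Tcf12 and Mef2d lie in the upper tail and Mef2a above the median of 17.5 FPKM, while Pax3 and Mef2c lie below it.

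The expressed members followed the order Tcf12, Mef2d, Mef2a, Pax3 and Mef2c in every library. Mef2d lay above Mef2a by a factor of 2.28 ± 0.0316, Mef2a above Pax3 by 3.50 ± 0.108, and Pax3 above Mef2c by 1.88 ± 0.150 (SD, n = 3), each in 3 of 3 libraries. The first neighbours were nearly level. Tcf12 lay above Mef2d by a factor of 1.07, 1.05 and 1.06 in libraries 1, 2 and 3, or 0.09 ± 0.02 on the log2 scale (SD, n = 3), a difference larger than the SD between libraries. For each of the 4 neighbouring pairs the exact permutation test (two-sided, over the signs of the log2 ratios) returned p = 0.25, and 0.25 after Benjamini-Hochberg adjustment over the 4. No smaller p can be reached with 3 libraries, and 0.05 was therefore out of reach. The pairs were set by the order of mean FPKM in these same libraries, so the p-value is no separate evidence for that order. With the longest isoform as the length, the order was the same, but Mef2a lay above Pax3 by 2.02 ± 0.0623 and Pax3 above Mef2c by 4.71 ± 0.376 (SD, n = 3), the latter since the longest of the 31 isoforms of Mef2c (6277 nt) exceeds the mean length of 2207 nt by a factor of 2.84, against 1.13 for Pax3.

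Against the genes at 0 only lower bounds can be given. With 3 fragments per library as the floor and the mean isoform length, Tcf12 was at least 877.5-fold higher than Myod1, 982.2-fold higher than Myf5, 595.5-fold higher than Myf6 and 704.9-fold higher than Myog. Even Mef2c, the lowest expressed member, was at least 50.3-fold higher than Myod1 and at least 34.1-fold higher than Myf6. These bounds depend on the length used. With the longest isoform, which was tried after these data had been seen, those of Tcf12 were 344.1-fold for Myod1, 385.1-fold for Myf5, 233.5-fold for Myf6 and 276.4-fold for Myog, and those of Mef2c 17.7-fold for Myod1 and 12.0-fold for Myf6.

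The 3 E protein genes, whose products pair with the myogenic bHLH factors, were all expressed, as were 49.2% of all protein-coding genes. With only 3 genes, this count is not read as a result about the family. Of the summed FPKM of the 3 E protein genes, 212.8 to 219.9 per library, Tcf12 held 46.9% ± 0.394, Tcf4 27.0% ± 0.913 and Tcf3 26.1% ± 0.817 (SD, n = 3). Tcf12 lay above Tcf4 by a factor of 1.73 ± 0.0677 and above Tcf3 by 1.80 ± 0.0586 (SD, n = 3), in 3 of 3 libraries each. Tcf4 had 55.3, 59.9 and 60.9 FPKM and Tcf3 had 57.2, 57.1 and 55.5 FPKM in libraries 1, 2 and 3. Tcf4 was below Tcf3 in library 1 and above it in the others, so no order between them could be given. In fragments, Tcf3 had 1858, 1795 and 1789 and Tcf4 had 1397, 1465 and 1525. The FPKM order and the shares therefore depend on the mean isoform length, 2251 nt for Tcf3 and 1751 nt for Tcf4.

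Over all protein-coding genes, 49.2% had a mean FPKM of at least 1. Among 20 genes known to oppose or compete with myogenic bHLH factors, 12 did (60.0%). The highest was Zeb2, an E-box repressor, with 65.4 ± 1.90 FPKM (SD, n = 3), followed by its paralog Zeb1 with 63.8 ± 1.96, Mdfic with 55.4 ± 1.26, Bhlhe40 with 54.1 ± 1.66 and Snai2 with 42.5 ± 1.37. Twist1, a bHLH factor of mesenchyme that also pairs with E proteins, followed with 41.0 ± 3.63 FPKM (SD, n = 3). The Id factors, which bind E proteins and keep them from DNA, were unequal. Id1 had 35.5 ± 0.607 FPKM (SD, n = 3) and Id3 13.2, whereas Id2 had 0.705 FPKM and Id4 0.749. The E protein genes summed to 4.32 ± 0.112 times the FPKM of the 4 Id genes (SD, n = 3). Msc, Mdfi, Tcf21 and Hey2 were listed at 0. Of these, Mdfi encodes the inhibitor of MyoD family proteins and Msc the bHLH repressor musculin.

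**Figure D3:**
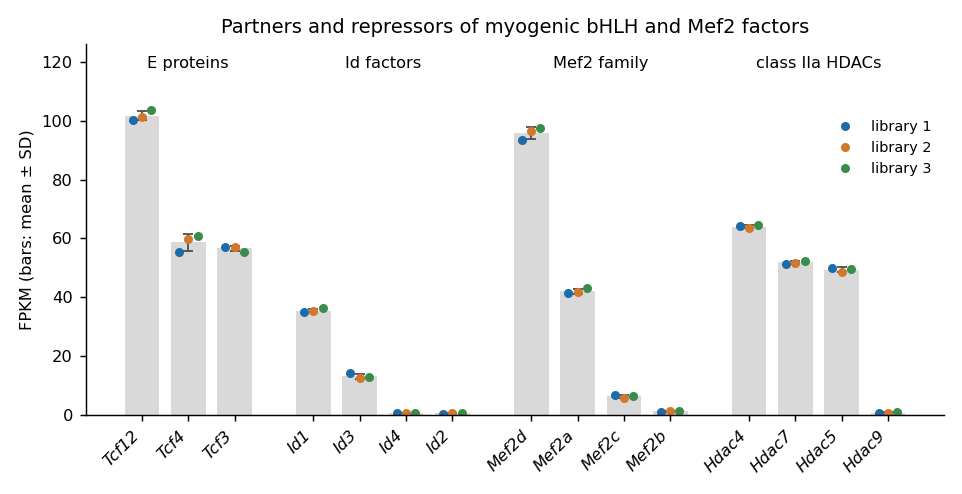
FPKM of E protein, Id, Mef2 and class IIa deacetylase genes, with bars for the mean over 3 libraries, error bars for the SD and points for each library. Tcf12 and Mef2d are the highest of their families, and Id2, Id4 and Hdac9 lie below 1 FPKM.

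Regulators of Mef2 factors were expressed nearly throughout, with 26 of 29 genes at a mean FPKM of at least 1 (89.7%). Over all protein-coding genes this share was 49.2%. The median was 34.4 FPKM for the list, against 0.804 over all protein-coding genes and 21.9 over those of at least 1 FPKM. This list also holds the paralog Mef2b, and without it 25 of 28 genes were expressed. Class IIa deacetylases bind Mef2 factors and repress their targets. Hdac4 had 64.0 ± 0.531 FPKM, Hdac7 51.9 ± 0.543 and Hdac5 49.4 ± 0.811 (SD, n = 3), while Hdac9 had 0.938 ± 0.249 FPKM. The highest gene of the list was Ppp3ca, a calcineurin catalytic subunit, with 207.3 ± 4.58 FPKM (SD, n = 3), followed by Camk2d with 80.9, Cabin1 with 73.4 and the acetyltransferase gene Ep300 with 69.6. The p38 kinase gene Mapk14, whose product phosphorylates Mef2 factors, had 43.0 FPKM, and Mapk13 was listed at 0. Of 20 known cofactors of MyoD, 18 reached 1 FPKM (90.0%), against 49.2% of all protein-coding genes. They were led by Tead1 with 158.9 ± 2.03 FPKM, Sp1 with 91.3 ± 2.56, Prmt5 with 66.5 ± 2.57, Setd7 with 58.5 ± 1.01 and Smarca2 with 56.96 ± 1.44 (SD, n = 3). The other 2, Rbm24 and Vgll2, both known from muscle itself, were listed at 0.

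Factors known upstream of the myogenic regulators were split between expressed genes and genes at 0. Of 22, 8 had a mean FPKM of at least 1 (36.4%), against 49.2% of all protein-coding genes. Another 8 were listed at 0, as were 28.2% of all protein-coding genes. Six4, a homeodomain factor of muscle precursors, had 6.44, 6.35 and 6.84 FPKM in libraries 1, 2 and 3. Of the Eya coactivators, Eya3 had 20.9 ± 0.793 FPKM and Eya1 4.08 ± 0.115 (SD, n = 3), whereas Eya2 was listed at 0. The Hedgehog effectors Gli2 and Gli3 had 20.5 ± 0.963 and 18.3 ± 0.660 FPKM (SD, n = 3). Among others, Pitx1, Pitx3, Lbx1, Six2, Zic1 and Dach1 were listed at 0.

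Genes of differentiated muscle were low. Of the 59 listed, 6 had a mean FPKM of at least 1 (10.2%), against 49.2% of all protein-coding genes. At 0 in all libraries were 21, as were 28.2% of all protein-coding genes. The list summed to 26.9 to 28.3 FPKM per library with a median of 0.0275 FPKM. The highest was Cox6a2, a cytochrome oxidase subunit of heart and muscle, with 8.36, 10.3 and 8.53 FPKM, followed by the acetylcholine receptor subunit gene Chrnb1 with 7.25, 8.54 and 7.60 FPKM in libraries 1, 2 and 3. Tnnc1 had 1.43 FPKM, Myom2 1.20, Myom1 1.16 and Des 1.06. Well-known markers of differentiation were at or near 0. Ckm, muscle creatine kinase, rested on 1 fragment in library 3, and the embryonic myosin gene Myh3 on 2 fragments each in libraries 1 and 3. The fusion gene Mymk, Myl1, Actc1, Cav3 and Dmd were listed at 0. Of 15 surface and signalling genes used to mark satellite cells, 7 reached 1 FPKM (46.7%), against 49.2% of all protein-coding genes. Sdc4 stood highest with 144.8 ± 0.872 FPKM (SD, n = 3), then Met with 29.7, Ncam1 with 25.5, Vcam1 with 20.1 and Sdc3 with 6.53, and Cxcr4, Heyl and Chodl were listed at 0. Of 10 markers of adipose, cartilage and bone lineages, Sox9 with 42.5 ± 1.02 FPKM, Runx2 with 33.4 ± 0.226 and Fabp4 with 7.69 ± 0.352 (SD, n = 3) reached 1 FPKM. Cebpa and Adipoq were listed at 0.

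**Figure D4:**
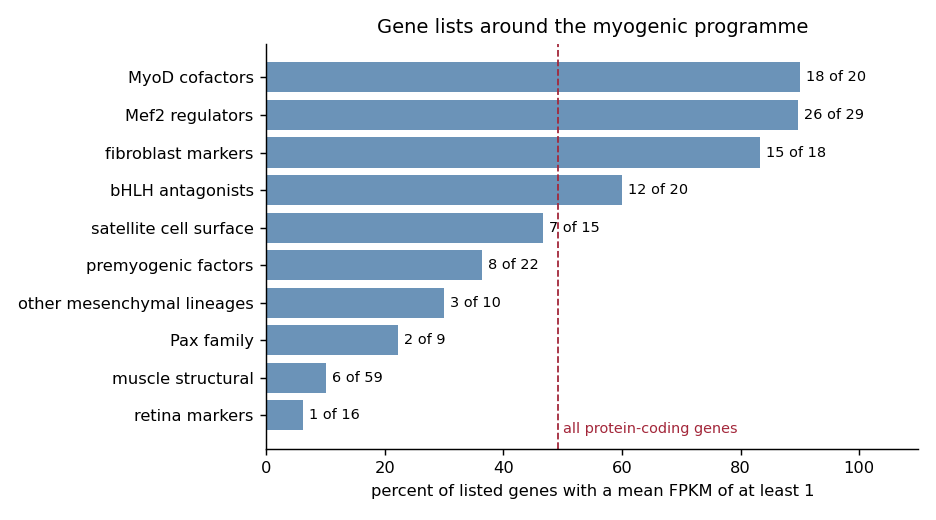
Percent of listed genes whose mean FPKM was 1 or more for 10 gene lists around the myogenic programme, with the counts beside each bar and a dashed line at 49.2%, the share over all protein-coding genes. Cofactors of MyoD, Mef2 regulators, fibroblast markers and, less far, bHLH antagonists lie above the line. Muscle structural genes and retina markers lie far below it.

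The promoter windows of the members differed in base composition. RefSeq start sites on GRCm38.p6, with 250 bases before and 50 after the start, were given for 7 of the 10 members in 11 windows. Among genes at 0, Myf5 had 3 CpG dinucleotides in its 300 bases, Myog 9 and Pax7 17. Among expressed members, Mef2d had 24 and Mef2a 27, and Tcf12 had 41, 45 and 0 in its 3 windows. Mef2c, the lowest expressed member, had 1, 10 and 4 in its 3 windows. The median over 32807 windows was 7, and 80.0% of windows had fewer CpG than Mef2d and 23.3% fewer than Myf5. The windows are few and a gene can use several, so this is a description without a test.

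Myog and Mef2d are shown as a gene at 0 and an expressed gene of the same pathway, each up to the base before its annotated start. In Myog, on the plus strand at chr1:134289754-134289988, capitals mark the E-box sequence CANNTG and the sequence CTANNNNTA, the core of the Mef2 binding motif, which was spelled out after this promoter had been read. In Mef2d, on the plus strand at chr3:88142122-88142371, capitals mark CpG dinucleotides:
Myog: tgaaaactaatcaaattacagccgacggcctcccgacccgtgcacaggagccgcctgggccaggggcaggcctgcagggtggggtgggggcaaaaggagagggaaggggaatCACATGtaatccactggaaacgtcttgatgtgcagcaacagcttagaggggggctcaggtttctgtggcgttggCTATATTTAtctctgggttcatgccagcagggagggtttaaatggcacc
Mef2d: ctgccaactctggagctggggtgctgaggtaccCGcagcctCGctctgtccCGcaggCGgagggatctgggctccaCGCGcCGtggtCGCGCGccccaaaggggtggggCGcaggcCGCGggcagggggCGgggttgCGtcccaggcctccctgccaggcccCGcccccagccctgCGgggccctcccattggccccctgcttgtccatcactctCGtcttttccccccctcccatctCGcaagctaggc
In Myog the E-box match CACATG, 1 of 2 in the 300-base window, began 123 bases before the annotated start and the CTATATTTA match 49 bases before it. Searched on both strands, CANNTG occurred in 72.3% and CTANNNNTA in 21.1% of all 300-base windows, so neither match sets Myog apart. The CpG-rich Mef2d stretch had no match to either in its 300-base window.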

How the data were processed

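UMI-RNAseq was measured in 3 libraries of NIH3T3 cells. According to the methods, reads with a UMI (UMI-tools 1.0.0) were mapped with Hisat2, for which the submitters' processing notes give version 2.0.4. Duplicates sharing both map position and UMI were taken out, and the rest were counted per gene with HTSeq 0.6.1. The authors deposited FPKM, in which the count is divided by gene length and library total. The build and annotation of the counting are not given in the sources used here. The processing notes also name DESeq 1.10.1 without its use. Both tables held the same values for 55573 genes, and 0 value columns were left unused.

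Because the unit is FPKM, count models were left out. In Python 3.11.15 (pandas 2.3.3, numpy 2.4.6), library totals were taken as the most frequent value implied by 1 fragment in genes with 1 isoform in GENCODE M21 (GRCm38), in which 55480 gene IDs were found. With the mean isoform length, rounded, 99.2% of 26178 genes above 0 gave fragments within 0.01 of whole numbers in all libraries. This step was tested on simulated data, where it returned 3 of 3 totals and the fragments of 100% of 24584 genes. The simulated FPKM were made with the same lengths, so this checks the calculation and not the choice of length. An FPKM of at least 1 was called expressed, and limits for a value of 0 rest on 3 fragments per library. Exact Poisson 95% intervals (scipy 1.17.1) cover counting error only. Ratios were taken within libraries without a pseudocount and tested with an exact sign-flip permutation test. Figures were drawn with matplotlib 3.10.9.

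The members, the gene lists and the settings were chosen with earlier results of these data known. Named are the members, the E protein, Pax and Mef2 families, class IIa deacetylases, overlapping genes, and in the other lists the highest 5 genes of at least 1 FPKM and the lowest. Some list genes are not reported here by name. Further list genes, and the flanking genes, were named after their values were seen. Tmem8c, an older name of Mymk, had no match in the table. The alternatives were leaving out each replicate, TPM, median-of-ratios scaling, the median, other lengths, pseudocounts of 1 and 0.1, and other limits on FPKM.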

Additional observations from a re-analysis of the deposited data

How the results depend on the processing

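No paired analysis was possible because the data hold 1 condition. The number of expressed members was 5 under every scaling, length and left-out replicate tried and with limits of 0.1 and 0.5 FPKM or above 0, and 4 with a limit of 10, which Mef2c missed. The sign of each of the 4 neighbouring log2 ratios was the same under all alternatives run, and the smallest p possible was 0.25. Scaling between libraries cancels in a ratio within a library. Since every library had the same sign, left-out replicates, the median and pseudocounts could not change it either. Only the other lengths could have done so. With the longest isoform, Pax3 over Mef2c moved from 0.91 to 2.23 and Mef2a over Pax3 from 1.81 to 1.01. The share of Mef2d in the summed Mef2 level was 58.9% from fragments not divided by length and 59.8% with the longest isoform, that of Mef2a 36.7% and 36.3%, and that of Mef2c 3.84% with the longest isoform. These settings divide by other lengths by construction. With the longest isoform, the levels fell to 39.9 for Tcf12, 35.1 for Mef2d, 21.3 for Mef2a, 10.6 for Pax3 and 2.26 for Mef2c. Rescaling to TPM moved Tcf12 to 147.3 and Mef2d to 138.8, and brought the retina markers at 1 or more to 2. With a limit of 0.1 FPKM, the genes past it were 4 of the Pax family, 20 of the muscle list, 7 retina markers and 5 of the other mesenchymal lineages. With 0.5 they were 10 muscle genes and 2 retina markers. With 10 they were 4 premyogenic factors, 1 Pax gene, 0 muscle genes, 4 satellite cell genes and 0 retina markers. Above 0 in every library were 4 Pax genes, 23 muscle genes, 8 retina markers and 5 genes of other mesenchymal lineages. No share over all genes was worked out for these other limits or for TPM, so the counts cannot be called high or low. For the genes at 0, the limits rest on the chosen floor of 3 fragments per library.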
